A study of Saccharomyces cerevisiae with 4 samples.

Results

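The histone genes of budding yeast were followed here through an RNA immunoprecipitation of the RNA-binding protein Whi3. They are the 10 genes whose array annotation carries the name HHF1, HHF2, HHT1, HHT2, HTA1, HTA2, HTB1, HTB2, HTZ1 or HHO1, out of 5738 gene probes on the arrays. All 10 had a value on every array, as did 4295 of all gene probes. A probe for the 3′ UTR was also spotted for each of the 8 core histone genes, out of 480 such probes on the arrays, of which 131 had a value on every array. Each histone probe was spotted 12 times, from 3 plates, against a median of 4 spots per gene.

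In one strain the endogenous Whi3 carried a TAP tag (Whi3-TAP), and in the other the same tagged protein lacked its RNA recognition motif (Whi3-dRRM-TAP). Both were MATa cells of the W303 background, with its auxotrophic markers and a KanMX4 cassette behind the tag, taken from cultures growing exponentially in rich medium. The TAP tag was pulled down on IgG beads, and the RNA in the immunoprecipitate (IP) was labelled with Cy3 and hybridised against Cy5-labelled total RNA of the same strain. Each group had 2 arrays, 1 from each of 2 experiments, and no untagged strain was analysed here. A measured RNA is therefore described by its log2 ratio of IP to total RNA, and by its net log ratio, the value with Whi3-TAP less the value with Whi3-dRRM-TAP, taken experiment by experiment and then averaged.

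Nucleosomes are built from the core histones H2A, H2B, H3 and H4, with the linker histone H1 on the DNA between them and the variant H2A.Z in place of H2A at many promoters. In yeast each core histone is encoded by a pair of genes, which lie in divergent H2A-H2B and H3-H4 pairs that share a promoter region. Their mRNAs accumulate in S phase and, unlike most histone mRNAs of animals, end in a poly(A) tail, so that oligo-dT priming reads them. HHF1 and HHT1 form the H3-H4 pair on chromosome 2, and HHF2 and HHT2 the pair on chromosome 14. HTA1 and HTB1 form the H2A-H2B pair on chromosome 4, and HTA2 and HTB2 that on chromosome 2. The annotated coding length is 312 bases for the H4 genes, 411 for the H3 genes, 399 for HTA1 and HTA2 and 396 for the H2B genes. The members of a pair encode identical (H3, H4) or nearly identical (H2A, H2B) proteins, and cross-hybridisation between their coding probes was not tested. The probes are double-stranded DNA, so transcripts of the opposite strand cannot be told apart.

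The arrays differed in quality. Between 76.7% and 86.5% of yeast spots were kept on 3 of the arrays and 46.4% on Whi3-dRRM-TAP array 1. The median local background in the IP channel was 568 and 395 intensity units on the Whi3-TAP arrays, and 1652 and 1619 on the Whi3-dRRM-TAP arrays, so it moved with the group, and its part in the results was not tested. WHI3 mRNA itself gave log2 ratios of IP to total RNA of 0.09 and 0.16 in Whi3-TAP, and -0.12 and -0.03 in Whi3-dRRM-TAP. Its probe is not known to lie within the deleted motif, so this does not check the strains. Of the 12 spots of each histone coding probe, 9 to 12 were kept on every array. Only HTZ1 and HHO1 were not above background (a mean signal over 2 background SDs) in an IP, on Whi3-dRRM-TAP array 1. The background difference reached these probes too. The IP of HHF1 and HHF2 stood at 94 to 273 background SDs with Whi3-TAP and at 8.8 to 16 with Whi3-dRRM-TAP. The lowest of the core histone genes was HTB2, at 2.98 on Whi3-dRRM-TAP array 1.

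In the coding probes, the H4 genes had the highest net log ratios of the histone genes, at about 2-fold, followed by the H3 genes at about 1.4-fold. H2A, H2B, H2A.Z and H1 lay nearer to or below 0. The 3′ UTR probes of HHF1 and HHT1 had the opposite sign, at -1.03 and -0.88. Those of HHF2 and HHT2 were positive, at 0.78 and 0.23. None of these 3′ UTR probes passed an adjusted p of 0.05 (limma). All but that of HHT2 were above background in neither channel of Whi3-dRRM-TAP array 1, and the sign of the HHT2 probe depended on the arrays used. No histone gene passed an adjusted p of 0.05 in the net log ratio, and neither did any other gene (0% of 4295 genes in either direction by limma with the experiment as a block and Benjamini-Hochberg adjustment). At an unadjusted p under 0.05, 548 genes (12.8%) were higher and 709 (16.5%) lower, and of the 10 histone genes 2 were higher (HHF1 and HHF2) and 0 lower. The median net log ratio was 0.23 over the histone genes and -0.09 over all genes.

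HHF1, one of the genes for histone H4, had log2 ratios of IP to total RNA of 0.14 and 0.01 on the Whi3-TAP arrays of experiments 1 and 2, against -0.86 and -1.12 on the Whi3-dRRM-TAP arrays. HHF2, the other H4 gene, had 0.47 and 0.31 with Whi3-TAP, against -0.47 and -0.81 with Whi3-dRRM-TAP. For both genes each Whi3-TAP array lay above each Whi3-dRRM-TAP array, as for 26.6% of all genes. The H4 genes were the only histone genes with a positive log ratio of the coding probe on any array. The net log ratio of HHF1 was 0.99 in experiment 1 and 1.13 in experiment 2, with a mean of 1.06 ± 0.10 (SD, n = 2 experiments), or 2.08-fold (limma, adjusted p = 0.0813). That of HHF2 was 0.94 and 1.11, with a mean of 1.03 ± 0.12, or 2.04-fold (limma, adjusted p = 0.0825). They ranked 212 and 230 among 4295 genes. Targets were defined in the study by how many SDs above the mean net log ratio of all genes an mRNA lay. With the processing used here that limit was 1.05, which HHF1 exceeded and HHF2 just missed. Over all genes 5.01% exceeded it, and of the 10 histone genes 1 did. The mirrored limit on the low side was -1.21, below which lay 5.05% of all genes and 0 of the 10.

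**Figure D1:**
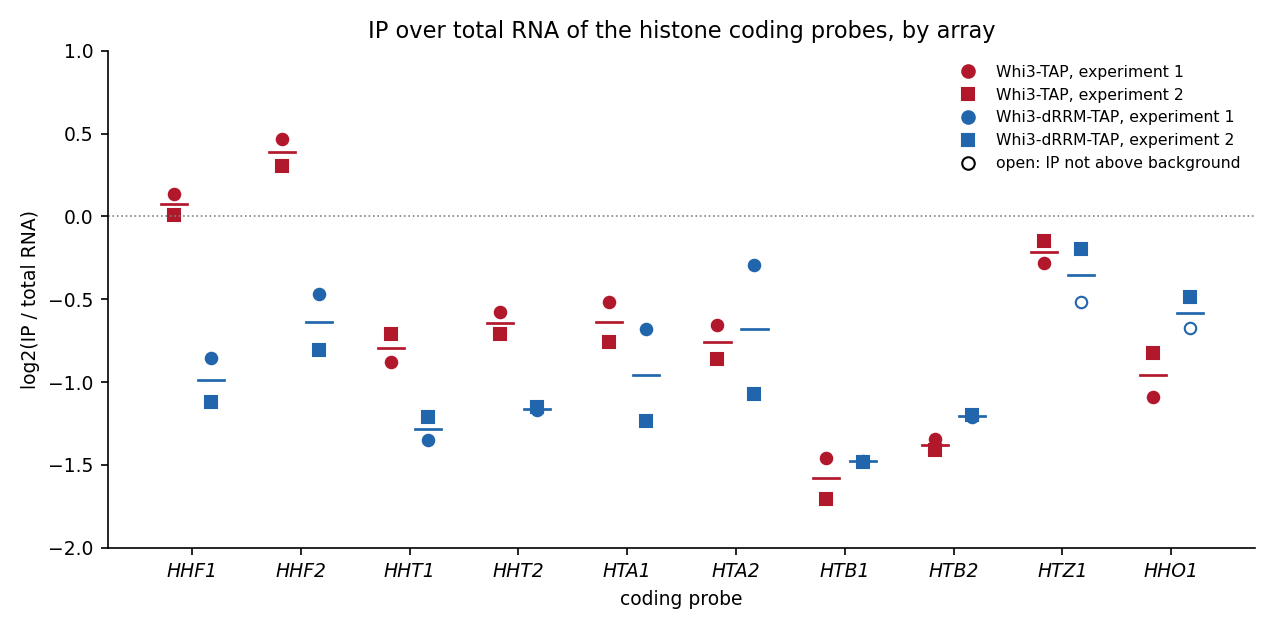
Log2 ratio of IP to total RNA (y axis) of the coding probes of the 10 histone genes (x axis), with Whi3-TAP in red left of Whi3-dRRM-TAP in blue, circles for experiment 1, squares for experiment 2, open symbols where the IP was not above background and a line at the mean of the 2 arrays. The H4 genes HHF1 and HHF2 lie between 0.01 and 0.47 with Whi3-TAP and between -1.12 and -0.47 with Whi3-dRRM-TAP. Whi3-TAP also lies above Whi3-dRRM-TAP on all arrays for HHT1 and HHT2, and below it for HTB2 and HHO1, whereas the groups of HTA1, HTA2, HTB1 and HTZ1 overlap. Over all genes (not drawn), 26.6% lie above and 34.2% below in this way.

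Once scaled between arrays, the channels behind these ratios differed between the H4 genes. The net IP intensity of HHF2 was 26553 and 46211 with Whi3-TAP and 7494 and 13129 with Whi3-dRRM-TAP. Its total RNA gave 27329 and 31959 in the Whi3-TAP strain and 17314 and 46729 in the Whi3-dRRM-TAP strain, so these groups overlapped. After scaling between arrays, the IP of HHF2 was higher with Whi3-TAP by 1.21 and 0.92 log2 units in experiments 1 and 2, while its total RNA differed by 0.27 and -0.19. For HHF1 the IP intensities were 23216 and 37824 with Whi3-TAP and 7888 and 11676 with Whi3-dRRM-TAP. Its total RNA gave 27123 and 27113 in the Whi3-TAP strain and 22382 and 42932 in the Whi3-dRRM-TAP strain, so these groups overlapped too. After scaling, the IP of HHF1 was higher by 0.65 and 0.69 log2 units and its total RNA lower by 0.34 and 0.43. On the scaled values both channels thus contributed to the net log ratio of HHF1. Unscaled, its total RNA was higher with Whi3-TAP in experiment 1. None of the 10 histone genes passed an adjusted p of 0.05 in total RNA (limma; 1.91% of all genes were higher and 0.0931% lower in Whi3-TAP). Their differences lay between -0.39 (HHF1) and 0.25 (HHO1) log2 units, with a median of 0.10. All 10 were thus below the median of 0.31 over all genes. At an unadjusted p under 0.05 there were 0 of the 10 in either direction (15.1% of all genes were higher and 0.536% lower). The gap between the histone median and that of all genes depended on the arrays. Without Whi3-dRRM-TAP array 1 the medians were 0.09 over the histone genes and 0.09 over all genes. Without Whi3-dRRM-TAP array 2 they were 0.17 and 0.52, and with flagged spots kept -0.12 and 0.0002.

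The repeated spots give the technical spread within an array. They share the array and are not replicates of a group. For HHF2, all 11 spots on Whi3-TAP array 1 lay above each of the 11 on Whi3-dRRM-TAP array 1, and in experiment 2, where 1 Whi3-dRRM-TAP spot read 0.34, 4 of 11 did. For HHF1, 10 of 12 Whi3-TAP spots did so in each experiment. Between the 3 plates from which the probes were printed, the net log ratio ranged from 0.90 to 1.10 for HHF2 and from 0.70 to 1.36 for HHF1. The sign was therefore the same on every plate for both genes.

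HHT1 and HHT2, which encode histone H3, came next. HHT1 had log ratios of -0.88 and -0.71 with Whi3-TAP, against -1.35 and -1.21 with Whi3-dRRM-TAP, and HHT2 had -0.57 and -0.71, against -1.17 and -1.15. As with H4, both Whi3-TAP arrays lay above both Whi3-dRRM-TAP arrays, an order found for 26.6% of all genes. The net log ratio was 0.48 ± 0.02 for HHT1 and 0.52 ± 0.11 for HHT2 (SD, n = 2 experiments), or 1.40-fold and 1.43-fold, and neither passed (limma, adjusted p = 0.203 and 0.190). The net log ratio of H4 exceeded that of the H3 gene beside it by 0.52 and 0.63 in experiments 1 and 2 on chromosome 2, and by 0.34 and 0.68 on chromosome 14. Between the copies the coding probes gave nearly the same value, HHF1 minus HHF2 being 0.05 and 0.01 and HHT1 minus HHT2 -0.13 and 0.06. Cross-hybridisation between these probes was not tested, so the copies may not have been measured apart. Some spots were saturated, most of all those of H3 in total RNA. Saturated pixels made up 50% or more of the median HHT1 spot in that channel on Whi3-TAP array 1 (60%) and Whi3-dRRM-TAP array 2 (80.5%), and of the HHT2 spot on Whi3-dRRM-TAP array 2 (51.5%). On the latter array that channel also had 34.5% for HTA1, 31% for HHF1, 13.5% for HTA2 and 7% for HHF2. In the IP of Whi3-TAP array 2, HHF1 had 8%. With saturated spots left out, HHT1 had a net log ratio of 0.44 (limma, adjusted p = 0.299), HHF1 0.99 and HHF2 0.97, while HHT2 had no value on every array.

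Among the H2A and H2B genes the net log ratios were small, and none passed. HTA1, an H2A gene, had log ratios of -0.52 and -0.76 with Whi3-TAP, against -0.68 and -1.23 with Whi3-dRRM-TAP, and a net log ratio of 0.32 ± 0.23 (limma, adjusted p = 0.377). HTA2, the other H2A gene, had -0.65 and -0.86, against -0.29 and -1.07, and its net log ratio was -0.36 in experiment 1 and 0.21 in experiment 2. The arrays of the groups overlapped for both. HTB1, an H2B gene, had -1.46 and -1.70 with Whi3-TAP, against -1.47 and -1.48 with Whi3-dRRM-TAP. HTB2, its copy, had -1.34 and -1.41, against -1.21 and -1.20. HTB1 thus had the lowest mean ratio of IP to total RNA of the histone genes in both groups, with arrays that overlapped. Both Whi3-TAP arrays of HTB2 lay slightly below its Whi3-dRRM-TAP arrays, and an order of this kind held for 34.2% of all genes. The net log ratios of HTB1 and HTB2 were -0.10 ± 0.17 and -0.17 ± 0.06 (limma, adjusted p = 0.764 and 0.597). For the H2A, H2B and H2A.Z genes other than HTA1, the sign of the net log ratio depended on the processing or on 1 array.

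HTZ1, which encodes H2A.Z, had log ratios of -0.28 and -0.15 with Whi3-TAP, against -0.51 and -0.20 with Whi3-dRRM-TAP, and a net log ratio of 0.14 ± 0.13 (limma, adjusted p = 0.676). HHO1, which encodes the linker histone, had -1.09 and -0.82, against -0.67 and -0.49. Both Whi3-TAP arrays of HHO1 thus lay below its Whi3-dRRM-TAP arrays, as for 34.2% of all genes. Its net log ratio was the lowest of the set, -0.37 ± 0.05 (limma, adjusted p = 0.288). On Whi3-dRRM-TAP array 1 the IP of neither HTZ1 nor HHO1 was above background, so their values in experiment 1 rest partly on a signal near background. These were also the dimmest coding probes of the set in the IP, with net intensities of 2490 and 5719 for HTZ1 and 1345 and 3818 for HHO1 with Whi3-TAP, and 1248 and 2894 for HTZ1 and 1063 and 2316 for HHO1 with Whi3-dRRM-TAP.

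Over the whole set the net log ratio was positive in both experiments for 6 of 10 histone genes, against 32.4% of all genes, and negative in both for 2 of 10, against 41.2%. The Whi3-TAP arrays both lay above the Whi3-dRRM-TAP arrays for 4 of 10 (the H3 and H4 genes), against 26.6% of all genes, and both below for 2 of 10 (HTB2 and HHO1), against 34.2%. With 10 genes, several of which may cross-hybridise, these counts are a description.

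Within each group, most histone mRNAs had a negative log ratio of IP to total RNA, the exceptions being HHF1 and HHF2 in Whi3-TAP. In Whi3-TAP 5 of 10 were lower than total RNA (limma against 0, with no block; 8.94% of all genes were), namely HTB1 at -1.58 ± 0.17, HTB2 at -1.38 ± 0.05, HHO1 at -0.96 ± 0.19, HHT1 at -0.80 ± 0.12 and HHT2 at -0.64 ± 0.10 (SD, n = 2 arrays), and 0 of 10 were higher (10.4% of all genes). In Whi3-dRRM-TAP 7 of 10 were lower (9.22% of all genes), namely all 4 H3 and H4 genes, both H2B genes and HTA1, between -1.48 (HTB1) and -0.64 (HHF2), and 0 of 10 were higher (13.6% of all genes). HHF1 and HHF2, at 0.07 ± 0.09 and 0.39 ± 0.12 with Whi3-TAP, did not pass in that group (limma, adjusted p = 0.780 and 0.160), and at -0.99 ± 0.18 and -0.64 ± 0.24 with Whi3-dRRM-TAP they did (adjusted p = 0.0167 and 0.0466). The call of HHF2 in Whi3-dRRM-TAP was lost in 8 of 14 alternatives. Over the histone genes the median was -0.70 in Whi3-TAP and -0.97 in Whi3-dRRM-TAP, beside 0.00 and 0.06 over all genes. All arrays had the same dye orientation, so a dye effect stays in these ratios, whereas it cancels in the net log ratio. With the arrays centred on their medians in place of loess, the Whi3-TAP ratios of HHF1 and HHF2 were -0.43 and -0.26, so their sign depended on the scaling. With either Whi3-TAP array left out, that group is 1 array whose spread is taken from the other group, and 0 of the 10 passed in Whi3-TAP although their ratios were about as large (-1.46 and -1.70 for HTB1). In Whi3-dRRM-TAP 0 passed without Whi3-TAP array 1 and 2 without Whi3-TAP array 2.

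**Figure D2:**
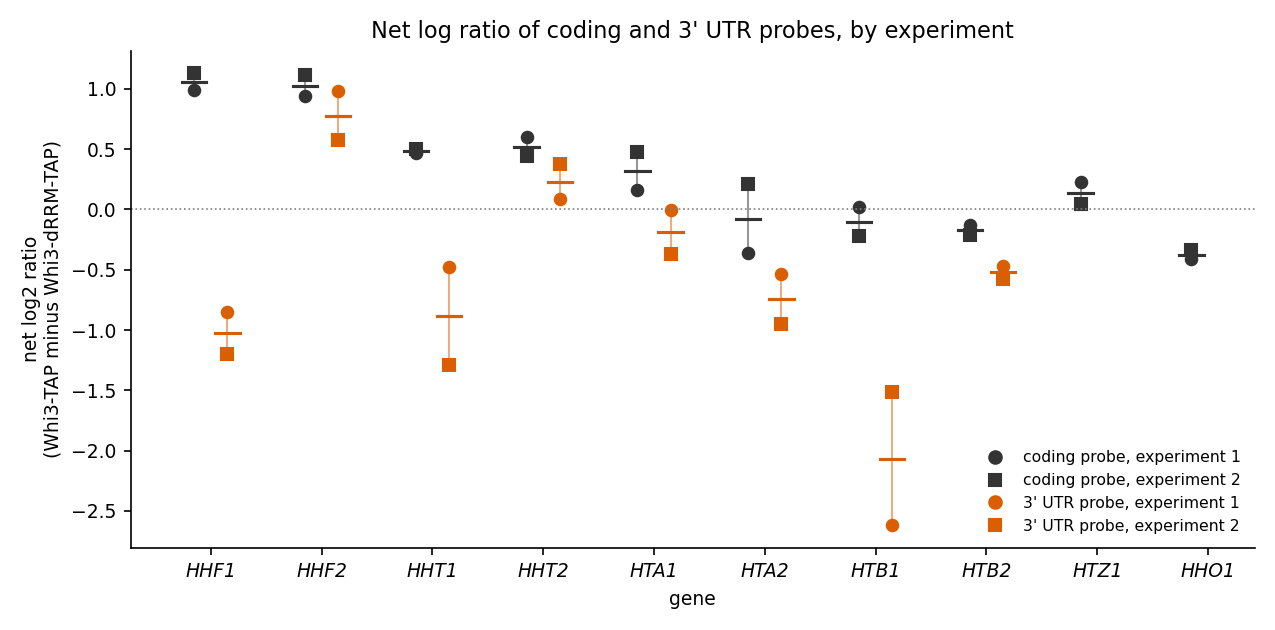
Net log2 ratio (Whi3-TAP minus Whi3-dRRM-TAP, y axis) of the coding probe (dark) and the 3′ UTR probe (orange) of each histone gene (x axis), with circles for experiment 1, squares for experiment 2 and a line at the mean. The 3′ UTR probe of HHF2 lies near its coding probe, at 0.98 and 0.57, whereas that of HHF1 lies at -0.85 and -1.20, and HTZ1 and HHO1 have no 3′ UTR probe here.

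The 3′ UTR probes offered a second measurement of each core histone mRNA. The names of these probes are the only account of what they cover, as their positions are not known. For HHF2 and HHT2 they gave the same sign as the coding probes and for HHF1 and HHT1 the opposite sign, though that of HHT2 turned to -0.23 without Whi3-TAP array 1 and to -0.37 without Whi3-dRRM-TAP array 2. They were tested apart, among the 131 such probes measured on every array. HHF2 had 3′ UTR log ratios of 0.97 and 0.28 with Whi3-TAP, against -0.02 and -0.29 with Whi3-dRRM-TAP, and a net log ratio of 0.78 ± 0.29 (SD, n = 2 experiments; limma, adjusted p = 0.267), which ranged from 0.43 to 1.12 with 1 array left out. HHF1 had -0.71 and -1.42, against 0.14 and -0.22, and a net log ratio of -1.03 ± 0.25 (limma, adjusted p = 0.105), which ranged from -1.38 to -0.67 with 1 array left out. In both experiments every Whi3-TAP spot of the HHF1 3′ UTR probe (highest -0.61 and -1.26) lay below every Whi3-dRRM-TAP spot (lowest -0.51 and -0.48). On Whi3-dRRM-TAP array 1, however, this probe was above background in neither channel.

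Between the H4 copies, the net log ratio of the HHF1 3′ UTR probe minus that of HHF2 was -1.78 in experiment 2, where the coding probes differed by 0.01. In experiment 1 it was -1.83, against 0.05 for the coding probes, but neither 3′ UTR probe was above background in either channel of Whi3-dRRM-TAP array 1, so that value does not measure the size. The 3′ UTR probe of HHF1 minus its coding probe was -2.33 in experiment 2, while for HHF2 this difference was -0.54. For H3 the 3′ UTR probe of HHT2 had a net log ratio of 0.08 and 0.37, and that of HHT1 -0.48 and -1.29 (limma, adjusted p = 0.837 and 0.199). The HHT1 3′ UTR probe minus that of HHT2 was thus -0.56 and -1.66. These differences between probes were not tested, and the HHT1 3′ UTR probe had 3 kept spots and was above background in neither channel on Whi3-dRRM-TAP array 1.

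**Figure D3:**
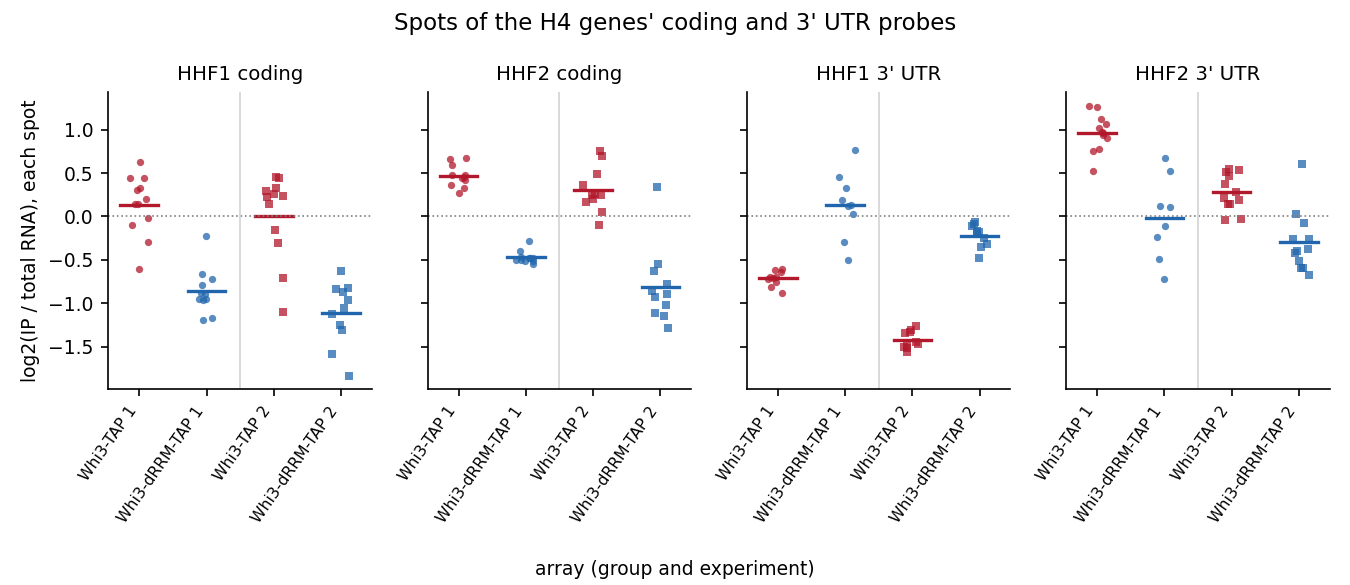
Log2 ratio of IP to total RNA of each kept spot (y axis) of the coding and 3′ UTR probes of HHF1 and HHF2 on the 4 arrays (x axis), with Whi3-TAP in red, Whi3-dRRM-TAP in blue and a line at the mean of the spots. The Whi3-TAP means lie above the Whi3-dRRM-TAP means for both coding probes and for the HHF2 3′ UTR probe, and below them for the HHF1 3′ UTR probe, whose spots do not overlap in either experiment. On Whi3-dRRM-TAP array 1 both 3′ UTR probes were above background in neither channel.

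Most 3′ UTR probes were dim, which bears on how firmly these values stand. On Whi3-dRRM-TAP array 1 only HHT2 was above background in the IP through its 3′ UTR probe, and HHF1 and HHF2 were above background there in neither channel. In experiment 2 the 3′ UTR probes of HHF1 and HHF2 were above background in both channels of both arrays. Their net IP intensities in that experiment were 4493 for HHF1 and 16115 for HHF2 with Whi3-TAP, and 4384 for HHF1 and 4928 for HHF2 with Whi3-dRRM-TAP. The total RNA gave 8287 for HHF1 and 9903 for HHF2 in Whi3-TAP, and 10418 for HHF1 and 12353 for HHF2 in Whi3-dRRM-TAP. Between the groups, the scaled IP of experiment 2 differed by -1.11 log2 units for HHF1 and 0.56 for HHF2, and the total RNA by 0.10 and -0.01. The 3′ UTR probe of HHT2 was bright on all arrays, with net IP intensities of 14521 and 26377 with Whi3-TAP and 5047 and 11056 with Whi3-dRRM-TAP.

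The H2A and H2B genes all had negative net log ratios in their 3′ UTR probes, at -0.19 ± 0.26 for HTA1, -0.74 ± 0.29 for HTA2, -0.52 ± 0.08 for HTB2 and -2.07 ± 0.78 for HTB1. The HTB1 probe was the only histone probe, coding or 3′ UTR, to pass in the net log ratio (limma, adjusted p = 0.00128; 2.29% of 3′ UTR probes were lower and 6.11% higher at that threshold). Coding and 3′ UTR probes were fitted apart, with prior degrees of freedom of 3.17 and 23.7, so passing does not mean the same in both. The HTB1 3′ UTR probe rested on 1 kept spot on Whi3-dRRM-TAP array 1, where its net total RNA intensity was -11. Its IP was above background on neither Whi3-dRRM-TAP array, nor on Whi3-TAP array 1. Its net log ratio was -2.62 in experiment 1 and -1.51 in experiment 2. With Whi3-dRRM-TAP array 1 left out and no block, the mean of both Whi3-TAP arrays differed from Whi3-dRRM-TAP array 2 by -0.57. Over the 8 3′ UTR probes, 6 were negative in both experiments, against 30.5% of all 3′ UTR probes, and 2 positive (HHF2 and HHT2), against 32.1%. None of the 6 negative probes was above background in the IP of Whi3-dRRM-TAP array 1. Their signs in experiment 1 thus rest on values near background, and that of HTA1 was -0.0024 there. At an unadjusted p under 0.05 there were 3 lower (HHF1, HHT1 and HTB1), against 8.4% of 3′ UTR probes, and 0 higher, against 13%. The median net log ratio was -0.63 over these 8 probes and 0.05 over all 131.

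Genes that act on histone genes and proteins more often had a negative than a positive net log ratio. Of a list of 40 regulators of histone genes, histone chaperones, factors of H2A.Z exchange and the centromeric histone, 34 had a value on every array and 0 passed an adjusted p of 0.05. Of these, 6 had a positive net log ratio in both experiments and 20 a negative one, with a median of -0.26, beside 32.4% and 41.2% of all genes and a median of -0.09. At an unadjusted p under 0.05, 2 were higher and 12 lower, beside 12.8% and 16.5% of all genes. The highest were HIR1, a subunit of the HIR complex that represses histone genes, at 1.17 ± 1.07 from 1 kept spot on its poorest array and with no Whi3-dRRM-TAP IP above background, INO80, the ATPase of a chromatin remodeller, at 1.11 ± 0.51 (limma, adjusted p = 0.0968), and SPT21, which is needed for normal transcription of histone genes, at 0.29 ± 0.14, with the same limits as HIR1. The lowest were SCM3, the chaperone of the centromeric histone, at -1.65 ± 1.70 from 1 spot on its poorest array, CSE4, the centromeric H3 variant itself, at -1.33 ± 0.17 (limma, adjusted p = 0.0706), and POB3, a subunit of the histone chaperone FACT, at -1.18 ± 0.39 (limma, adjusted p = 0.0854), the last 2 with 2 spots on their poorest array. The IP was above background on both Whi3-dRRM-TAP arrays for 4 of the 34.

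The genes whose 4 log ratios lay nearest to the median of the 8 core histone genes were CYS4, which makes cystathionine, BMH1, a 14-3-3 protein, and YHB1, a flavohemoglobin. They were chosen by Euclidean distance (0.304, 0.352 and 0.413 log2 units over 4 arrays) among 645 genes above background in the IP of every array. The median of the core histone genes was -0.61 and -0.73 with Whi3-TAP, against -1.01 and -1.17 with Whi3-dRRM-TAP. CYS4 had -0.65 and -0.57, against -0.76 and -1.18. BMH1 had -0.72 and -0.86, against -0.75 and -1.01. YHB1 had -0.88 and -1.02, against -0.93 and -1.29. These values are the ones that chose the genes.

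**Figure D4:**
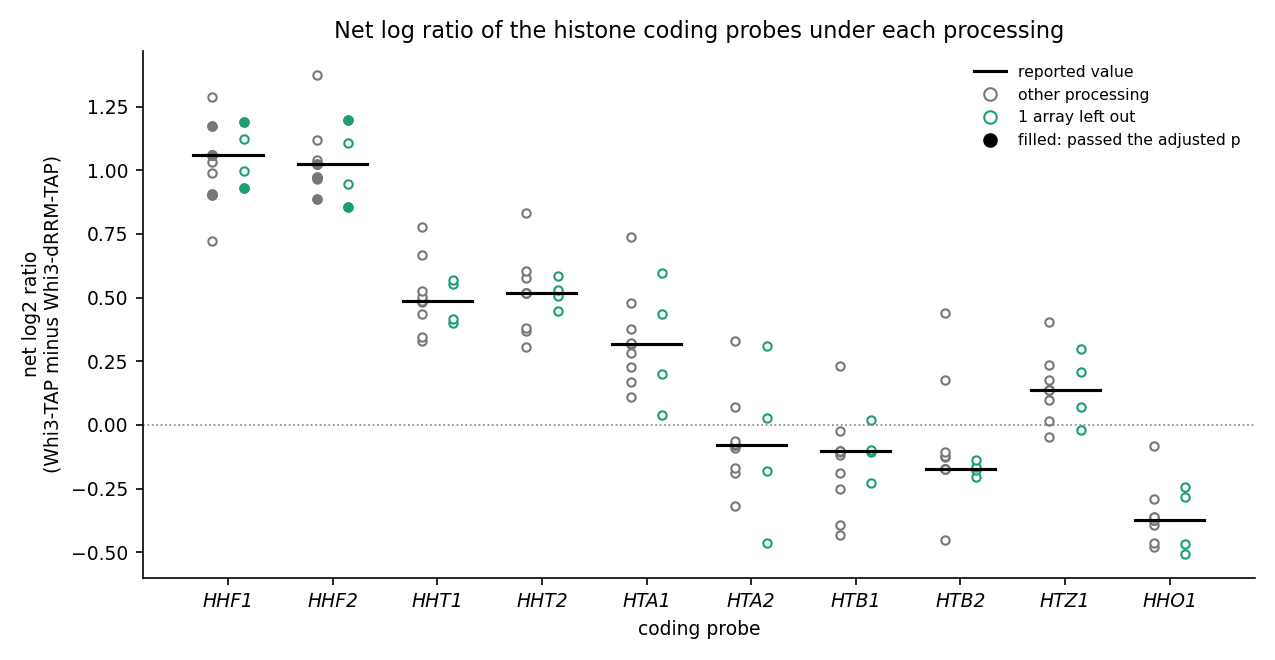
Net log2 ratio (Whi3-TAP minus Whi3-dRRM-TAP, y axis) of the coding probe of each histone gene (x axis) as reported (black line), under other processings of all arrays (grey) and with 1 array left out (green), with filled points where the adjusted p was under 0.05. HHF1 stays between 0.72 and 1.29 and HHF2 between 0.86 and 1.38, and points of HTA2, HTB1, HTB2 and HTZ1 lie on both sides of 0.

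For the coding probes of the H4 genes the call depended on the processing, whereas the direction did not. Over 15 alternatives each, the net log ratio ranged from 0.72 to 1.29 for HHF1 and from 0.86 to 1.38 for HHF2, and the adjusted p (limma) from 0.00498 to 0.487 for HHF1 and from 0.00558 to 0.501 for HHF2. HHF1 passed in 7 of these alternatives and HHF2 in 6. Fits with 1 array left out also had no block, and the group left with 1 array was assumed to vary like the other group. With Whi3-dRRM-TAP array 1 or 2 left out in this way both genes passed (limma, adjusted p = 0.0264 and 0.0176 for HHF1, and 0.0267 and 0.0246 for HHF2), and with either Whi3-TAP array left out neither did. With all 4 arrays and no block neither passed (adjusted p = 0.0683 for HHF1 and 0.0775 for HHF2). The net log ratios of HHT1, HHT2 and HTA1 stayed positive and that of HHO1 negative in every alternative run, without passing in any. Their size did not hold as well, since HTA1 was 0.04 without Whi3-dRRM-TAP array 2 and 0.60 without Whi3-dRRM-TAP array 1, and HHO1 was -0.08 with the arrays centred on their medians. The 3′ UTR probe of HHF1, unlike its coding probe, stayed negative over 15 alternatives, from -1.38 to -0.67. That of HHF2 stayed positive over 15, from 0.43 to 1.12.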

How the data were processed

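The members, lists and tests were chosen with earlier results of these data known. Per the file headers, each deposited table gives, per spot and channel, an intensity of the foreground and of the background around it, the saturated pixels as a percent, and a log2 ratio that the authors scaled by 1 constant per array. Per the methods, arrays were homemade, from PCR products, and read in GenePix Pro. The deposited series matrix holds the authors' loess-normalized log2 ratio per probe, whose centring is unknown (column medians 0.25, 1.08, 0.21 and 0.52, in order Whi3-TAP 1, Whi3-dRRM-TAP 1, Whi3-TAP 2 and Whi3-dRRM-TAP 2), and was used only as an alternative. No genome build is named with the probes, so positions are not printed. Of 5738 gene probes, 5548 matched RefSeq by systematic name.

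Spots with a negative GenePix flag were left out, mean foreground was corrected with the median background (normexp, offset 50), log ratios were normalized by loess (span 0.3, 4 iterations) within each array, and spots of a probe were averaged (limma 3.58.1, R 4.3.3; figures with Python 3.11.15, matplotlib 3.10.9 and pandas 2.3.3). A value on every array was required, or on the other 3 where an array was left out. The net log ratio was tested with limma (lmFit, eBayes, two-sided) with the experiment as a block, which leaves 1 residual degree of freedom beside a prior of 3.17, with Benjamini-Hochberg adjustment at 0.05 over all genes. Replicate numbers stand for independently done experiments, per the methods, and the deviations of same-numbered arrays from their group means correlated at r = 0.218. With 2 arrays per group an exact permutation test cannot go below p = 0.333. Group ratios were tested against 0 with no block. Channels were compared after Aquantile scaling, with the experiment as a block for total RNA, where the prior was infinite and all genes share 1 spread. The 3′ UTR probes were fitted alone, with a prior of 23.7 degrees of freedom. The scripts were tested on simulated data.

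Named are the 10 histone genes, the 3 highest and 3 lowest of the 40 listed genes, and the 3 genes nearest the core histone profile. Precision is limited by the number of arrays.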

Additional observations from a re-analysis of the deposited data

Results flagged for a closer look

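The 3′ UTR probe of HTB1, an H2B gene, differed between the groups by the test of the difference itself, with a net log ratio of -2.07 (limma, adjusted p = 0.00128). Its log ratios were -0.59 and -2.47 with Whi3-TAP, against 2.03 and -0.96 with Whi3-dRRM-TAP, so each group spanned over 1 log2 unit. Kept spots numbered 3 and 12 on the Whi3-TAP arrays and 1 and 12 on the Whi3-dRRM-TAP arrays. The IP of this probe was above background only on Whi3-TAP array 2. In experiment 1 neither channel was above background in either group, so its value there does not measure the size. The coding probe of the same gene had a net log ratio of -0.10 (limma, adjusted p = 0.764).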

How the results depend on the processing

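Of the results for single histone probes under the alternatives, 470 kept their direction and side of the threshold, 41 became significant, 38 lost significance and 25 changed sign. The cause of these changes was not tested. Fits with 1 array left out also had no block, so they changed 2 choices, and the group left with 1 array was assumed to vary like the other. Genes passing in the net log ratio numbered 0 with the experiment as a block and 132 with no replicate block, where the H4 genes did not pass either (adjusted p = 0.0683 and 0.0775). They numbered 100 with median centring of each array, 674 with no background correction, 1051 with flagged spots kept, 363 with the median of spots, 514 with dim genes left out, 527 with an intensity trend in the prior and 462 in the series matrix, and 0 to 1530 with 1 array left out. HHF1 passed with no background correction (0.91), flagged spots kept (0.90), the median of spots (1.17), dim genes left out and the intensity trend, and HHF2 with the same settings (0.89 and 0.97 in the first pair) except the median of spots. Median centring moved the median net log ratio of all genes to -0.21, and that of the histone genes to 0.59.

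The sign of the net log ratio turned with median centring for HTA2 (0.33), HTB1 (0.23) and HTB2 (0.44), in the series matrix for HTA2 (0.071) and HTB2 (0.18), and with no background correction for HTZ1 (-0.048). With 1 array left out it ranged from -0.46 to 0.31 for HTA2, -0.23 to 0.020 for HTB1, -0.019 to 0.30 for HTZ1, -0.37 to 0.83 for the HHT2 3′ UTR probe and -0.62 to 0.24 for that of HTA1, and, without a change of sign, from -1.41 to -0.36 for that of HHT1 and -1.14 to -0.34 for that of HTA2. The Whi3-TAP ratio of IP to total RNA was -0.43 for HHF1 and -0.26 for HHF2 with median centring and -0.21 and -0.045 in the series matrix. That of HHF1 was -0.057 with print-tip loess and -0.21 with saturated spots left out, a setting chosen after seeing the data. The total RNA difference of HHF2 was -0.13 with median centring, -0.17 with flagged spots kept, -0.0029 with the median of spots, and -0.094 to 0.18 with 1 array left out.

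Genes passing in the Whi3-TAP ratio numbered 831, but 1476 with no background correction, 1532 with flagged spots kept, 404 in the series matrix and 0 to 2025 with 1 array left out, 0 without either Whi3-TAP array, where 0 histone genes passed. HHF2 passed there as higher only without Whi3-dRRM-TAP array 2 (0.39, adjusted p = 0.0485). In the Whi3-dRRM-TAP ratio they numbered 982, but 1677 with median centring, 1682 in the series matrix and 73 to 1825 with 1 array left out, and the histone genes lower there numbered 0 without Whi3-TAP array 1 and 2 without Whi3-TAP array 2. In total RNA they numbered 86, but 0 with no replicate block, 56 with median centring, 216 with no background correction, 0 with flagged spots kept, 51 with dim genes left out, 51 with the intensity trend and 0 to 204 with 1 array left out, and 0 histone genes passed in any of these. Of 3′ UTR probes 11 passed, but 0 with no replicate block, print-tip loess or dim genes left out, 1 with plain subtraction or saturated spots left out, 2 with flagged spots kept, 17 with the intensity trend, 0 to 5 with 1 array left out, and 5 of 64 with at least 3 kept spots on every array. The HHF1 and HHF2 3′ UTR probes passed with the intensity trend (adjusted p = 0.00878 and 0.0350). The HTB1 3′ UTR probe did not pass with no replicate block (adjusted p = 0.415), print-tip loess (-1.65) or flagged spots kept (-1.20), and ranged from -3.56 to -0.57 with 1 array left out.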
